A study of Mus musculus with 2 samples.

Results

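The genes described here encode the machinery that detects damaged DNA, halts the cell cycle and repairs the lesion. They were chosen as a fixed list of 37 genes in 4 groups, which were the ATM/ATR checkpoint, homologous recombination, the Fanconi pathway and excision repair. Each gene was read through its brightest probe set, the short set of oligonucleotides that an Affymetrix array uses to measure 1 transcript. Of the 37 genes, 35 had such a probe set among the 18193 genes of the array, and all 35 lay above the floor of signal on both arrays. Rbbp8 and Xrcc2 were not matched to a probe set and were not analysed here.

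The study compared cultured B-cell lymphoma cells of 2 mouse genotypes, with 1 array for each. By the labels, the first, Cdk4+/+:Eµ-Myc, kept the cyclin-dependent kinase gene Cdk4, and the second, Cdk4-/-:Eµ-Myc, had lost both copies. Both carried the Eµ-Myc transgene, in which the immunoglobulin heavy chain enhancer drives Myc in B-lineage cells, so neither array stands for a B cell with normal Myc. Both lymphomas came from lymph nodes and were grown in medium with serum before RNA extraction. Strain, age, the number of tumours behind each culture and whether a culture was a single clone are not given in the sources used here.

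Double-strand breaks recruit and activate the kinase ATM, while stretches of single-stranded DNA at stalled replication forks activate the kinase ATR through its partner ATRIP. Both kinases signal to CHK1 and CHK2, which delay the cell cycle, and to the proteins that rebuild the break by copying the sister chromatid. Cells driven by high Myc replicate under strain and are known to lean on the ATR and CHK1 branch.

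With 1 array a group, there is no replicate error and no test for any difference, and what follows compares 2 cultures. Values are MAS5 signal intensities on a linear scale, and each difference is the log2 value on the array labelled null after subtracting that on the array labelled wild type. The floor was an intensity of 62.2, the median over all probe sets of both arrays without the control probe sets. The only error at hand is the disagreement between probe sets of the same gene. It came to an SD of 0.31 on the log2 scale per probe set over 3082 genes, and it does not cover variation between cultures or tumours.

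The targeted gene went against the labels. The 3 Cdk4 probe sets read 1.18, 1.19 and 3.71 on the array labelled wild type against 4506, 4945 and 6958 on the other. Directions below follow the labels as given, and would all turn if the labels were exchanged. Of 8 B-cell markers, 7 were matched and all 7 were above the floor on both arrays, with summed intensities of 24557 and 27505 on the arrays labelled wild type and null. Of 5 T-cell markers, 1 was above the floor on each array, and Cd3e, Cd3d, Cd3g and Cd4 lay below it on both. Of 8 macrophage and granulocyte markers, the array labelled wild type had 3 above the floor and the array labelled null 6, with summed intensities of 336 and 2076. Among them Lyz2 read 70.1 and 1368 and Csf1r 85.5 and 221, while Mpo and Elane lay below the floor on both. Stromal and endothelial markers stood at 3 and 4 of 5 with sums of 886 and 1823. Col1a1, Col1a2 and Col3a1 read 3.19, 85.5 and 33.6 on the array labelled wild type and 150, 591 and 286 on the other. Of the endothelial markers, Pecam1 read 695 and 777, and Cdh5 was lower on the array labelled null, at 68.2 and 20.2. Of 4 erythroid markers 2 were matched, and 1 was above the floor on each array, with sums of 112 and 604. That marker was Car2, at 69.1 and 585, while the globin gene Hba-a1 lay below the floor on both, at 42.9 and 19.3. In bulk RNA, fewer cells of a type and less RNA per cell cannot be told apart, and the part of these other cells in the differences below was not tested.

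As a whole, the damage response genes read much the same on both arrays. None of the 35 differed by 2-fold or more, where 7.53% of all 9418 genes that passed the floor on both arrays did (4.26% higher and 3.27% lower on the array labelled null). At 1.5-fold or more, 4 of the 35 differed, against 20.7% of all genes. These shares of all genes depend on the floor. With it at the 75th percentile they were 3.30% at 2-fold and 13.6% at 1.5-fold, and at the 25th percentile 12.1% and 28.0%, while 0 of the listed genes reached 2-fold under either. Of the 4 genes at 1.5-fold, Bard1 was higher on the array labelled null, against 11.1% of all genes in that direction, and Atm, Ogg1 and Xrcc3 were lower, against 9.56%. Atm kept that size under each alternative, though its second probe set alone gave -0.53, short of 1.5-fold. Ogg1 and Xrcc3 were not measured with the floor at the 75th percentile, stood just short of 1.5-fold at -0.58 and -0.52 with a pseudocount, and stood at -0.40 and -0.26 with the mean of probe sets. Xrcc3 was also just short at -0.57 with median scaling, and Ogg1 stood at -0.10 without shared probe sets. The median difference was 0.03 over the 35 genes and 0.00 over all 9418. There were 18 genes above 0 and 17 below. The median size of a difference, whatever its sign, was 0.18 for the 35 genes and 0.27 for all genes. For 24 of the 35 the difference was smaller than the probe set SD, which was true of 54.3% of all genes.

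**Figure D1:**
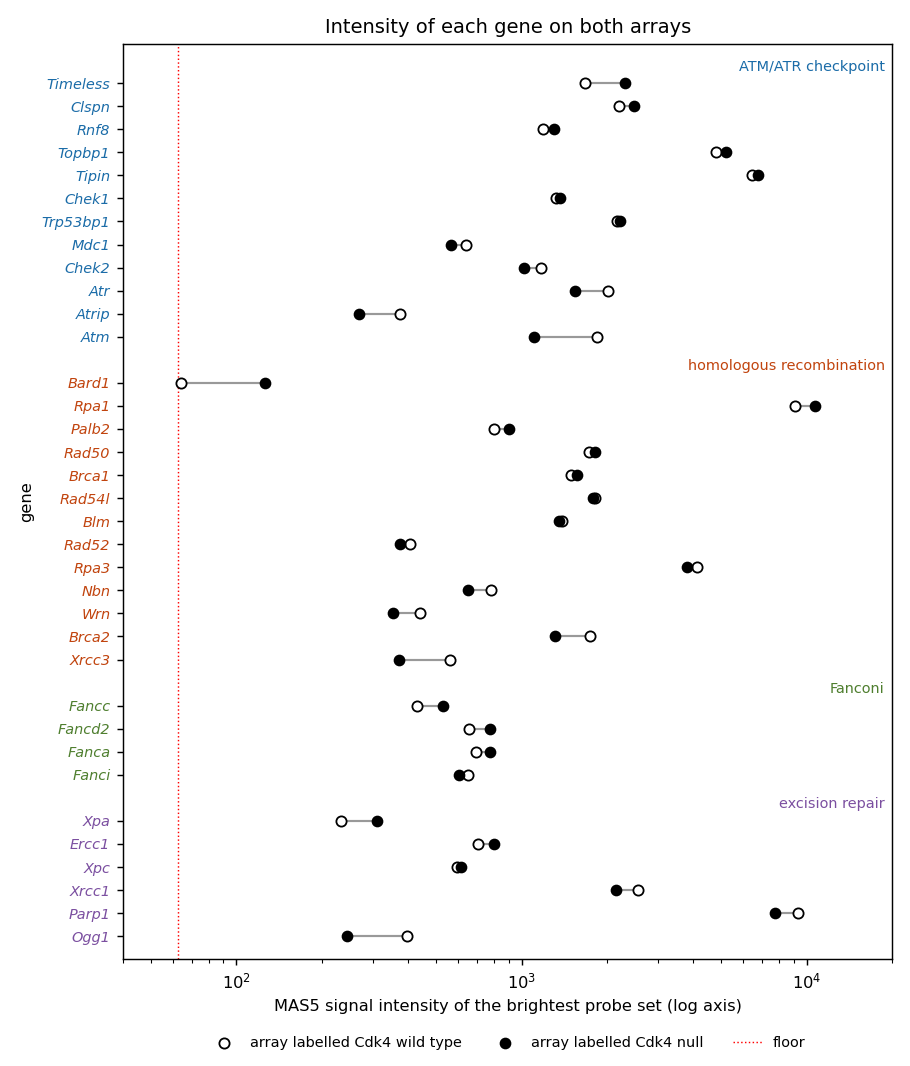
MAS5 signal intensity (log axis) of the brightest probe set of each of the 35 genes, with open circles for the array labelled wild type, filled circles for the array labelled null and a dotted line at the floor of 62.2. Most pairs of circles nearly touch, the widest gap is that of Bard1 next to the floor, and Atm has the widest gap among the checkpoint genes.

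Of the 12 checkpoint genes, 1 passed 1.5-fold, Atm, against 20.7% of all genes. The kinases at the head of the pathway are given first. Atm, the kinase that responds to double-strand breaks, had an intensity of 1842 on the array labelled wild type against 1110 on the array labelled null, the order kept below. This is 1.66-fold lower, a log2 difference of -0.73, and the lowest of the 35 genes. Its second probe set read 1693 against 1173, or -0.53, so both placed Atm lower on the array labelled null. Atr, the kinase of stalled replication forks, stood at 2015 against 1545 (-0.38). Its second probe set, at 447 against 393, gave -0.19, and the third, at 92.9 against 103.7, turned to 0.16 close to the floor. With the mean of probe sets Atr stood at -0.14. Atrip, which brings ATR to single-stranded DNA, stood at 374 against 269 (-0.48) by its only probe set. Of these 3 genes only Atm differed by more than 1.5-fold.

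Atm starts back to back with Npat, which encodes a coactivator of histone gene transcription, and the promoter between them lies within reach of both. Npat, named after its values were seen, read 860 against 825, a difference of -0.06 beside the -0.73 of Atm. In the RefSeq gene table of GRCm38.p6 the outermost ends of the genes are 60 bases apart, at chr9:53536829-53536888. The spacer is shown as the plus strand, on which Npat is transcribed, because the 2 genes that it separates differed between the arrays by unlike amounts.
Atm-Npat spacer: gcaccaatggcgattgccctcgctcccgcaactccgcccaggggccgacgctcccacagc
Of these bases 71.7% are G or C. On the other side of Atm, the nearest gene above the floor on both arrays was the helicase gene Ddx10, at 2203 against 2263 (0.04).

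The effector kinases of the checkpoint were close to even. Chek1, which encodes CHK1, the effector of ATR, read 1326 against 1360 (0.04). Its next probe sets read 1029 against 1118 and 206.6 against 206.5, and the dimmest of those above the floor at 79.8 against 67.7. Chek2, which encodes CHK2, the effector of ATM, stood at 1172 against 1021 (-0.20). Both differences were smaller than the probe set SD.

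Next come the genes that carry the ATR signal at the fork, none of which reached 1.5-fold. Timeless, which with TIPIN forms the fork protection complex, stood at 1670 against 2302, a difference of 0.46 and 1.38-fold higher on the array labelled null. Its second probe set, at 796 against 913, gave 0.20. Tipin itself stood at 6437 against 6764 (0.07). Clspn, which encodes the adaptor claspin that presents CHK1 to ATR, stood at 2205 against 2483 (0.17), and its second probe set was even at 176 against 177. Topbp1, the direct activator of ATR, stood at 4796 against 5213 (0.12), with 0.25 by its second probe set. Of these 4 genes only Timeless differed by more than the probe set SD.

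For genes of the chromatin response to breaks, the differences by the brightest probe sets were smaller than the probe set SD. Mdc1, the scaffold that binds phosphorylated histone H2AX, stood at 637 against 565 (-0.17), and Rnf8, the ubiquitin ligase that MDC1 recruits, at 1192 against 1298 (0.12). Trp53bp1, which encodes 53BP1, a protein that shields broken ends from resection, read 2167 against 2211 (0.03). That probe set also matches other transcripts, which can be of the same gene. The next 3 probe sets of the gene ran from -0.29 to -0.06. Another 2 of its probe sets read 1.93 against 127 and 0.47 against 118. They are bounds of at least 2.05-fold and 1.90-fold, which the 4 brighter probe sets of the gene did not show. Over the 12 checkpoint genes, 7 were above 0 and 5 below, with a median of 0.03.

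**Figure D2:**
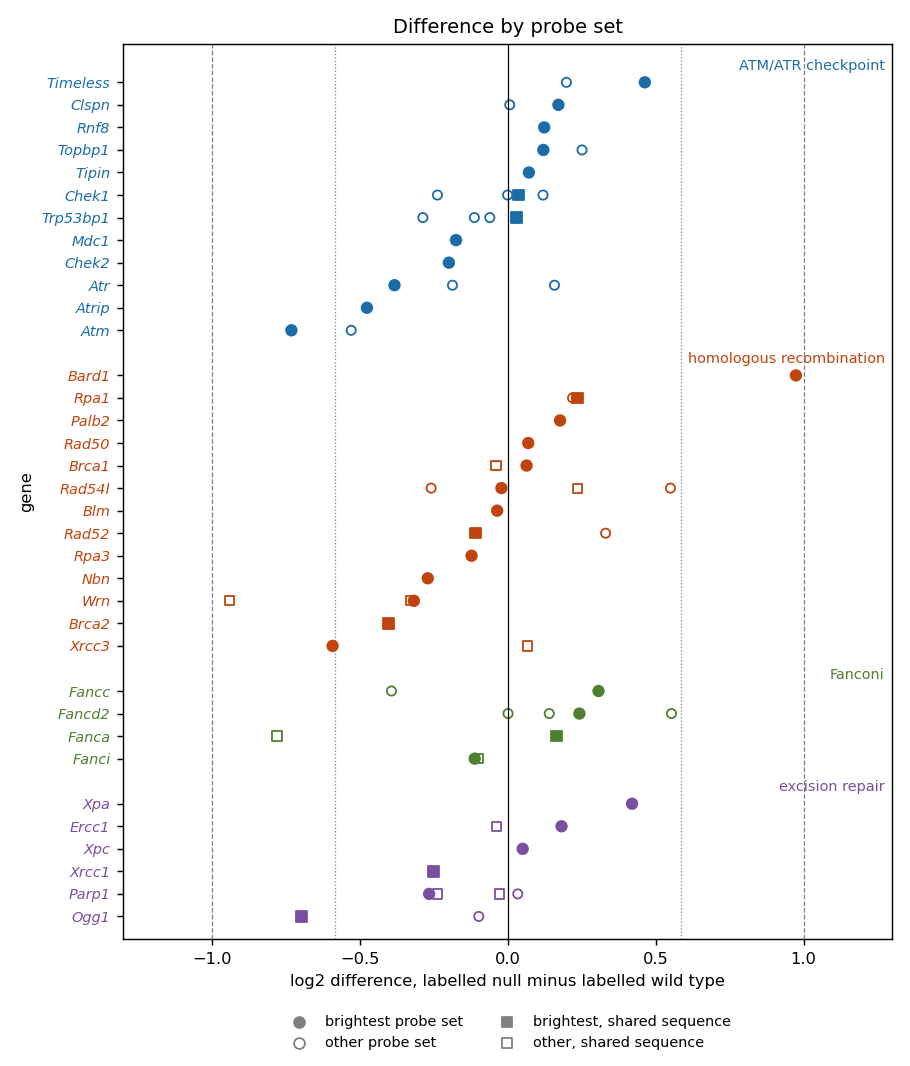
Log2 difference (labelled null minus labelled wild type) of every probe set that cleared the floor on both arrays, with filled symbols for the brightest probe set of a gene, open symbols for its others and squares for probe sets that share sequence. Dotted lines mark 1.5-fold and dashed lines 2-fold. Both Atm symbols lie left of -0.5, while the symbols of Fanca, Fancc, Rad52 and Xrcc3 fall on both sides of 0.

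Homologous recombination genes were spread on both sides of 0, with 5 above and 8 below and a median of -0.04 over the 13 that were matched. Bard1, whose protein is the obligate partner of BRCA1 in a ubiquitin ligase, was the highest of all 35 genes, at 63.9 against 125. Its difference of 0.97 rests on 1 probe set that read barely above it on the array labelled wild type, so it is close to a bound. With a pseudocount in place of the floor the difference was 0.57. Brca1, by contrast, was even, at 1495 against 1563 (0.06), and its 2 other readable probe sets both gave -0.04. Palb2, which links BRCA1 to BRCA2, stood at 798 against 901 (0.18).

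Brca2, which loads the recombinase onto single-stranded DNA, read 1735 against 1312 (-0.40) by its only probe set, which shares sequence. Xrcc3, which acts in strand exchange, was the lowest gene of this group, at 560 against 372, which is 1.51-fold lower and a difference of -0.59. Its second probe set, which also shares sequence, read 166 against 174 and so did not show it. The probe sets of Rad52, which encodes an annealing protein for single strands, disagreed too, with -0.11 by its brighter probe set at 405 against 376, which shares sequence, and 0.33 by the other at 258 against 325. Rad54l, a motor protein of strand invasion into the sister chromatid, stood at 1812 against 1785 (-0.02), and its 3 other probe sets ran from -0.26 to 0.55.

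Of the MRN complex, which holds broken ends and activates ATM, Rad50 was even at 1725 against 1810 (0.07) and Nbn stood at 784 against 650 (-0.27). The RecQ helicases that untangle recombination intermediates gave -0.04 for Blm, at 1386 against 1352, and -0.32 for Wrn, at 441 against 354. All 3 Wrn probe sets were lower on the array labelled null, the other 2 at -0.33 and -0.94, and both of those share sequence. The single-strand binding protein RPA had its large subunit gene Rpa1 at 9072 against 10683 (0.24), with 0.22 by its second probe set, and its small subunit gene Rpa3 at 4140 against 3804 (-0.12). At 1.5-fold, 2 of the 13 recombination genes differed, which is 15.4% against 20.7% of all genes. They were Bard1, higher on the array labelled null, and Xrcc3, lower.

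The Fanconi pathway repairs crosslinks between the strands of DNA. Its 4 genes stayed within 1.24-fold of even by their brightest probe sets, with 3 above 0 and a median of 0.20. Fancd2, whose product is loaded onto the crosslink as a clamp, stood at 654 against 773 (0.24). Its other 3 probe sets were not lower on the array labelled null, from 0.00 to 0.55. Fanci, which encodes the other part of that clamp, stood at 651 against 603 (-0.11), with -0.10 by its second probe set. Fancc, of the core complex that ubiquitinates the clamp, stood at 430 against 532 (0.31) by its brightest probe set. Another gave 150 against 114 (-0.39). The third read 91.9 against 45.4, below the floor on the array labelled null, which is a bound of at least 1.48-fold lower. Fanca, of the same core complex, gave 0.17 at 691 against 775 and -0.78 at 210 against 122, both by probe sets that share sequence. The signs for Fancc and Fanca therefore depend on the probe set. With the mean of probe sets the median of the group was -0.07.

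Among the excision repair genes, which replace damaged bases and nucleotides, 3 were above 0 and 3 below, with a median of -0.10. Ogg1, the glycosylase that removes oxidised guanine, was the lowest, at 397 against 245, which is 1.62-fold lower and a difference of -0.70. That probe set shares sequence, which can be with transcripts of the same gene, and the other read 186 against 174 (-0.10). Parp1, which senses strand breaks and recruits repair proteins, stood at 9295 against 7733 (-0.27). Its next probe set gave -0.24 and the 2 dimmer ones -0.03 and 0.03. Xrcc1, the scaffold of single-strand break repair, stood at 2561 against 2152 (-0.25).

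None of the 3 nucleotide excision genes on the list reached 1.5-fold. Xpa, which verifies the lesion, was the highest of the group at 233 against 311, a difference of 0.42 by its only probe set above the floor. Ercc1, part of the nuclease that cuts on the 5′ side of the lesion, stood at 704 against 799 (0.18), with -0.04 by a second probe set that shares sequence. Xpc, which recognises the distortion of the helix, read 594 against 615 (0.05), which turned to -0.19 with chromosome medians subtracted. Of the 6 excision repair genes only Ogg1 differed by 1.5-fold, which is 16.7% against 20.7% of all genes, and 0 did with shared probe sets left out.

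Across the 4 groups, 20 genes had at least 2 probe sets that cleared the floor on both arrays. Their probe sets gave the same sign for 9 genes and opposed signs for 11. The same count was not made over all genes, so these numbers cannot be called particular to the listed genes. The distance from the lowest to the highest probe set of a gene had a median of 0.34 over these 20 genes. It is a range over 2 or more probe sets, so it is not of a kind with the median size of 0.18 over the 35 genes. Over all genes, the brightest 2 unshared probe sets of a gene lay a median of 0.25 apart, beside a median size of 0.27. They lay less than 0.84 apart in 95% of cases. Of the 20 genes only Fanca exceeded 0.84 from lowest to highest.

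Other genes of the same pathways, chosen with earlier results of these data known and read from the same 2 arrays, gave a like picture. This second list held 75 genes, of which 69 were matched and 67 lay above the floor on both arrays, while Dmc1 and Ercc6 lay below it on both. The other 6 genes of the list were not analysed here. At 1.5-fold, 2 of the 67 were higher and 3 lower, against 11.1% and 9.56% of all genes. At 2-fold 0 were higher and 1 lower, against 4.26% and 3.27%. The median was -0.01 and the median size 0.16.

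The gene at 2-fold was Fancb, of the Fanconi core complex, at 1236 against 577 (-1.10), with -0.92 by its second probe set. Neil1, a glycosylase for oxidised bases like OGG1, stood at 4999 against 2593 (-0.95) by its only probe set. The helicase gene Helq stood at 1027 against 683 (-0.59), with -0.30 by its second probe set. It was no longer past 1.5-fold under 4 alternatives, which gave -0.57 with median scaling, -0.55 with a pseudocount, -0.45 with the mean of probe sets and -0.43 with chromosome medians subtracted. Faap100, which binds FANCB in the core complex, stood at 385 against 276 (-0.48), but its second probe set was even at 173 against 169 (-0.03). Higher on the array labelled null were Dna2, a nuclease that resects broken ends, at 1138 against 2168 (0.93), and the helicase gene Recql at 927 against 1457 (0.65). The 2 other probe sets of Dna2 gave 0.78 and 0.38. The probe set of Recql shares sequence, and its others ran from -0.16 to 0.69. Recql lies on chromosome 6 and stood at 0.41 with chromosome medians subtracted and 0.42 with the mean of probe sets, no longer past 1.5-fold in either. Rmi1, a partner of BLM, stood at 744 against 1064 (0.52) by a probe set that shares sequence. An unshared one, at 180 against 257, gave 0.51, while the others that share sequence gave 0.07 and -0.59. Fancf stood at 667 against 893 (0.42), with 0.14 by its second probe set.

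**Figure D3:**
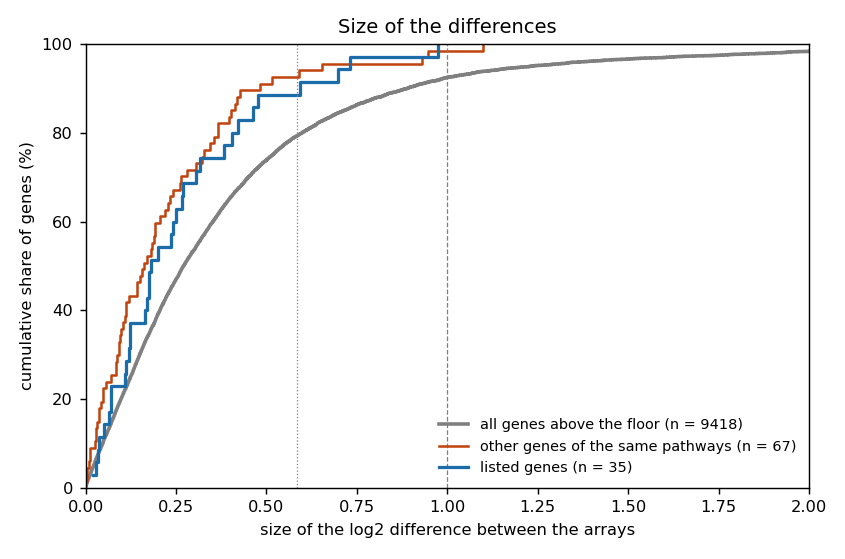
Cumulative share of genes (%) by the size of their log2 difference, for the 35 listed genes, the 67 other genes of the same pathways and all 9418 genes above the floor, with lines at 1.5-fold (dotted) and 2-fold (dashed). Both pathway curves lie above the curve of all genes at 1.5-fold, since 4 of 35 and 5 of 67 genes are beyond it against 20.7% of all genes.

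Many of these genes are transcribed in the S phase of dividing cells, so genes of replication and division are given beside them. Of 16 such genes 15 were measured, with 5 above 0, 10 below and a median of -0.12. The highest was Tyms, the thymidylate synthase gene, at 197 against 356 (0.86). The lowest was Ccna2, which encodes cyclin A2, at 10925 against 7097 (-0.62). Only these 2 passed 1.5-fold, which is 13.3% against 20.7% of all genes. Ccna2 lies on chromosome 3, where the median over 453 genes was -0.47. Mki67, the proliferation antigen, stood at 10151 against 9121 (-0.15) and Mcm5, of the replicative helicase, at 7198 against 8034 (0.16).

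CDK4 acts on the retinoblastoma protein, which restrains E2F factors, so the promoters were searched for E2F-type letters. These were TTTCCCGC, TTTGGCGC, TTTGCCGC and TTTCGCGC on either strand, in the 300 bases from 250 before to 50 after each start in RefSeq's GRCm38.p6. None of these strings contains the E-box letters CACGTG, which were searched in the same way. Of the 35 genes, 29 had a promoter in the table, and those without were Tipin, Rad50, Nbn, Wrn, Fancd2 and Xpc. The E2F-type letters stood in 6 of the 29 promoters (20.7%), against 2.60% of all 27025 genes in the table and 5.22% of the 7745 among them that were above the floor on both arrays. The E-box letters stood in 2 of 29 (6.90%), those of Parp1 and Rpa1, against 8.09% and 12.8%. A match is a description of the sequence and not a site of binding.

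The 6 stretches with E2F-type letters are shown because the genes that hold them lay on both sides of 0. Each is 30 bases of the gene's own strand, with the matched letters in capitals.
Bard1: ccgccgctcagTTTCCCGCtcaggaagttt
Brca2: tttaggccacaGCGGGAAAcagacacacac
Chek2: cgggattagccGCGGGAAAccaagacgtcg
Mdc1: tcttcagcctgTTTCCCGCcggtagccgca
Clspn: accgcgtctggGCGCGAAAgctcgaacttc
Topbp1: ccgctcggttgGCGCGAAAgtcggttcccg
They lie at chr1:71103163-71103192 on the minus strand for Bard1, and on the plus strand at chr5:150522442-150522471 for Brca2, chr5:110839820-110839849 for Chek2, chr17:35841471-35841500 for Mdc1, chr4:126556990-126557019 for Clspn and chr9:103305187-103305216 for Topbp1. Bard1, Brca2, Chek2 and Mdc1 hold the same 8 letters, on one strand or the other, and had differences of 0.97, -0.40, -0.20 and -0.17. Clspn and Topbp1 share another form and had 0.17 and 0.12. The median difference was -0.03 over the 6 genes with the letters and -0.02 over the 23 without.

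The chromosomes of these genes were compared as well, since the 2 cultures differed along some chromosomes. The 35 genes lie on 13 chromosomes, and 0 of them lie on chromosome 3, where the median over 453 genes was -0.47. Chromosome 6 had the highest median among the chromosomes with a listed gene, 0.24 over 433 genes, and carries Fancd2, Xpc, Rad52, Rpa3 and Ogg1. Of these 5 genes 4 were below that median, and Fancd2 was the gene at it. Relative to its chromosome, Ogg1 thus stood at -0.94, Rpa3 at -0.36 and Rad52 at -0.35. Chromosome 5 had a median of -0.16 and carries Brca2 and Chek2, which came to -0.25 and -0.04 relative to it.

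Chromosome 9 holds 6 of the genes and had a median of 0.02. Atm, Atr and Atrip, at -0.73, -0.38 and -0.48, lie there together with Chek1, Tipin and Topbp1, at 0.04, 0.07 and 0.12. The genes of this chromosome thus lay on both sides of its median. Each listed gene was also set beside the nearest gene above the floor on each side. Of 70 such neighbours, 34 had the sign of the listed gene, and the correlation of a gene's difference with the mean of its neighbours was 0.01 (Pearson's r) and 0.01 (Spearman's rho) over 35 genes, all from the same 2 arrays. Xrcc3 was an example with both neighbours lower on the array labelled null, Klc1 at -0.65 and Zfyve21 at -0.53. Ogg1 was an example of the opposite, with its neighbours Brpf1 and Tada3 at 0.84 and 0.27.

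**Figure D4:**
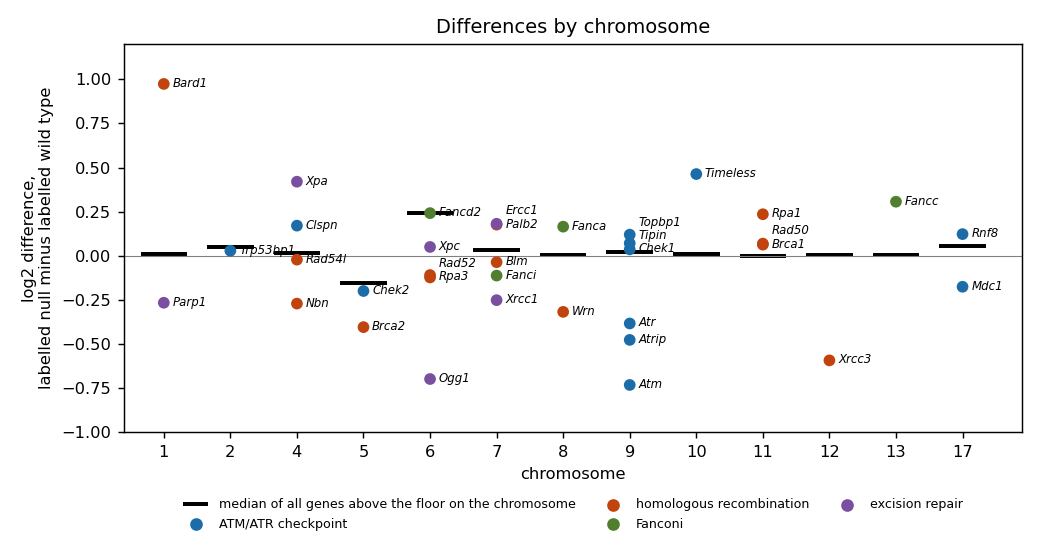
Log2 difference (labelled null minus labelled wild type) of the 35 genes by chromosome, coloured by group, with a black bar at the median of all genes above the floor on that chromosome. On chromosome 6 the bar is at 0.24 and 4 of 5 genes are below it, and on chromosome 9 the bar is at 0.02 with Atm, Atr and Atrip below it and Chek1, Tipin and Topbp1 just above.

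The differences were recomputed under 8 other ways of processing. Over these and the reported one, 26 of the 35 genes had the same sign wherever they were measured, and the floor at the 75th percentile left out 8 of the 35. Atm ranged from -0.76 to -0.63, so that it passed 1.5-fold in each, Atr from -0.41 to -0.14 and Atrip from -0.50 to -0.40. Timeless ranged from 0.33 to 0.48 and Xpa from 0.34 to 0.44. The widest range was that of Ogg1, from -0.94 with chromosome medians subtracted to -0.10 without shared probe sets. Rad52 spanned 0, from -0.35 to 0.33, as did Fanca, from -0.31 to 0.18.

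**Figure D5:**
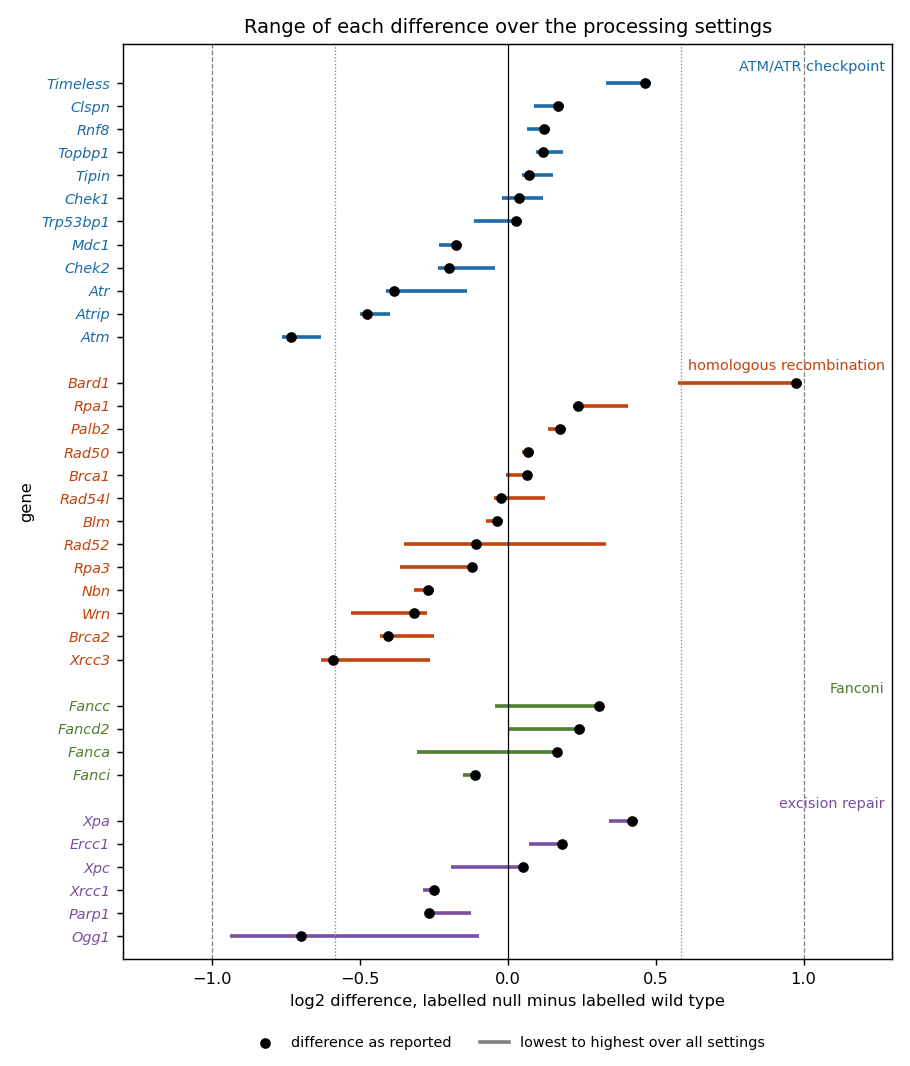
Lowest to highest log2 difference (labelled null minus labelled wild type) of each gene over the reported and 8 alternative ways of processing (coloured line) and the reported value (black point), with dotted lines at 1.5-fold and dashed lines at 2-fold. Atm stays left of -0.58 throughout, whereas the lines of Ogg1, Rad52, Fanca and Xrcc3 are long.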

How the data were processed

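Per the labels' protocols, 6 µg of Trizol-extracted total RNA was turned into biotinylated cRNA for Affymetrix mouse arrays. The authors deposited MAS5 signal intensities on a linear scale, per the submitters' processing notes, for 45101 probe sets on each of 2 arrays. Its version is not given in the sources used. The mean after trimming 2% from each end was 500.003 on both arrays, so no rescaling was made. Intensities below the floor (the 50th percentile of all values without the 64 control probe sets) were set to it before log2. Names came from the platform annotation of GEO, with 1 symbol for 34945, several for 932 and none for 9160, and genes were placed with RefSeq's GRCm38.p6 table. Of a gene's probe sets, the one with the highest mean log2 intensity was used. Probe sets ending in a, s, x or f were counted as sharing sequence with other transcripts. These can be transcripts of the same gene, as for the ending a, or of other genes. The ending was a for the shared probe sets of Ogg1, Brca2, Fanca, Rad52 and Wrn. It was x for that of Xrcc3 and s for that of Ercc1. With 1 array a group no test was possible, and differences were counted at 1.5-fold and 2-fold. Arrays give no read depth, so their number limits the precision. Named by rule are all listed genes, the 4 other pathway genes with the largest difference each way, and Cdk4. Neighbouring genes, proliferation genes, cell type markers and the pathway genes below the floor are named outside that rule, the first 2 kinds after their values were seen. The genes, lists and thresholds were chosen with earlier results of these data known. The alternatives were the floor at the 25th or 75th percentile, a pseudocount equal to the floor, quantile normalization, median scaling, no shared probe sets, the mean of probe sets, and chromosome medians subtracted. The calculation was tested on simulated data, in which only bright genes were changed, by the same fold in every probe set of a gene. It did not cover changes near the floor, changes that differ between probe sets or shifts of a chromosome. Python 3.11.15, pandas 2.3.3 and numpy 2.4.6 were used.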

Additional observations from a re-analysis of the deposited data

How the results depend on the processing

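The median over the 35 genes turned to -0.037 with chromosome medians subtracted and -0.036 with the mean of probe sets, which gave -0.064 for the checkpoint genes and -0.074 for the Fanconi genes. Excision repair genes had a median of -0.24 with chromosome medians subtracted and 0.050 without shared probe sets. Of the 35 genes, the number higher by 1.5-fold was 0 with the floor at the 75th percentile and with the pseudocount, and the number lower was 1 under both and with the mean of probe sets. The homologous recombination genes at 1.5-fold numbered 0 with the floor at the 75th percentile and with the pseudocount, and 1 with median scaling and with the mean of probe sets. Excision repair genes numbered 0 with the floor at the 75th percentile, with the pseudocount, with the mean of probe sets and without shared probe sets. Of the other pathway genes, 1 was higher by 1.5-fold with chromosome medians subtracted and 5 were lower with the mean of probe sets. In all, 21 of 152 list values moved by more than the probe set SD divided by the square root of the number of genes or, for counts, by more than 1.5 times. The floor at the 75th percentile left 27 of the 35 genes measured, and the causes of the other shifts were not tested. No paired analysis was possible because each group held 1 array. Dim probe sets such as that of Bard1 limit what can be said.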
